A study of Mus musculus with 20 samples.

Results

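Hopx and 8 genes for proteins reported to bind HOPX or to act with it were followed through sorted stem and progenitor cells of mouse bone marrow. They are the rows of the deposited count table whose Ensembl identifiers map to Hopx, Srf, Hdac1, Hdac2, Hdac3, Epc1, Smad4, Mrtfa and Mrtfb, 9 of the table's 45706 genes. All 9 were among the 17160 genes with enough reads to be tested. Hopx passed that filter through its wild-type libraries, since it had no read in any knockout library. RNA sequencing libraries were made from 6 groups. KO LT-HSC, KO MPP2 and KO MPP3, with 3 libraries each, came from Hopx-knockout mice. WT LT-HSC, with 4 libraries, WT MPP2, with 3, and WT MPP3, with 4, came from Hopx-wildtype mice. LT-HSC are long-term haematopoietic stem cells, and MPP2 and MPP3 are subsets of multipotent progenitors, biased to the megakaryocyte and myeloid lineages. All the mice were 8 weeks old and of the C57BL/6 background, with no treatment named. How the knockout allele was made, whether all cells carry it, and which animal gave which library are not stated in the labels. The p-values below therefore measure the spread between libraries, which may be partly technical.

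HOPX has a homeodomain that lacks the contacts for binding DNA, so it works through other proteins. In heart muscle it was described as a repressor of SRF, the serum response factor, which binds CArG boxes in the promoters of cytoskeletal and immediate early genes. It is thought to do so by recruiting histone deacetylases, and HDAC1, HDAC2 and HDAC3 are class I enzymes that remove acetyl groups from histones within larger complexes. MRTFA and MRTFB are coactivators of SRF that are held in the cytoplasm by unpolymerised actin. EPC1 is a scaffold subunit of the NuA4 histone acetyltransferase complex and was reported to bind HOPX in muscle cells. SMAD4 is the shared partner of the receptor-activated SMADs of BMP and TGF-beta signalling, with which HOPX was linked in heart progenitors. In blood, HOPX is known as a gene of quiescent stem cells.

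The windows upstream of Hopx and Srf are shown because both hold the element through which SRF acts. They are the 250 bases before the RefSeq start of each gene in GRCm38.p6, at chr5:77115124-77115373 and chr17:46556163-46556412, both on the minus strand and written 5′ to 3′ with CArG boxes in capitals.
Hopx upstream: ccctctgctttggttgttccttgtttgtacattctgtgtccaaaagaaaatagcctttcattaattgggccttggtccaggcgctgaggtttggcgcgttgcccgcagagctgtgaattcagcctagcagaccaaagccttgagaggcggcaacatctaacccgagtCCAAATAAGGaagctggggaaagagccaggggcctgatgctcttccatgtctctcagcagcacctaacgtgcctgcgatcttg
Srf upstream: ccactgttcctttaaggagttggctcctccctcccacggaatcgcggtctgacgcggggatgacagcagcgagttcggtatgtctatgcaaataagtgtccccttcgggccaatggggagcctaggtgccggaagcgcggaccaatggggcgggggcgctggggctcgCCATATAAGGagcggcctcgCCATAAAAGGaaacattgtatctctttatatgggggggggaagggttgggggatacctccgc
The Hopx box begins 83 bases before the start, and the Srf boxes begin 82 and 62 bases before it. A CArG box, a run of A and T bases between a CC and a GG that was searched on both strands, lay in 1.63% of all 32851 RefSeq promoter windows and in 1.81% of 27025 genes with a window. Of the members, 5 had a window, and 2 of these held the motif. Hopx has another RefSeq window further down the gene, in which no match was found. A match describes the letters of the window and was not tested as a site.

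The libraries held 11163345 to 15189909 reads in genes and 14931 to 20831 genes with reads. The 8 LT-HSC markers summed to 6125 to 11489 normalized counts in LT-HSC libraries, against 1228 to 4350 in the MPP2 and MPP3 libraries together. The 6 megakaryocyte markers summed to 16047 to 76635 in 5 of 6 MPP2 libraries, to 477 to 2051 in MPP3 and to 4072 to 37767 in LT-HSC, so they did not separate MPP2 from LT-HSC. The 6 myeloid markers summed to 25978 to 146062 in MPP3, 2511 to 72741 in MPP2 and 1076 to 3264 in LT-HSC, so MPP2 and MPP3 overlapped in them. WT MPP2 replicate 3 stood apart, with a megakaryocyte sum of 3839, a lymphoid-primed sum of 11816 and a B cell sum of 178226. By sex, read from Xist and Y-linked transcripts, the KO groups were 2 female and 1 male each, while WT LT-HSC and WT MPP3 held 1 female and 3 male and WT MPP2 held 1 female and 2 male. These are bulk samples, so fewer cells of a type and less RNA per cell cannot be told apart.

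Compared per kilobase of exon, Hdac2 was the highest of the 9 genes, with a mean of 1109 normalized counts per kilobase over the 20 libraries, above 96.8% of the 29904 genes with reads. Hdac3 followed at 378 and Hdac1 at 239 per kilobase. Smad4 averaged 157, Srf 106, Epc1 83.4, Mrtfa 65.2 and Mrtfb 51.8 per kilobase. Hopx averaged 20.8 per kilobase over the 11 WT libraries, above 56.0% of the 27700 genes with reads in them, and 11.4 over all libraries, KO included. Hdac2 exceeded each of the other 7 partner genes per kilobase in 20 of 20 libraries, and Hdac3 exceeded Hdac1 in 20 of 20. Neighbours in the middle of the order were not separated, as Srf was above Epc1 in 12 of 20 libraries.

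**Figure D1:**
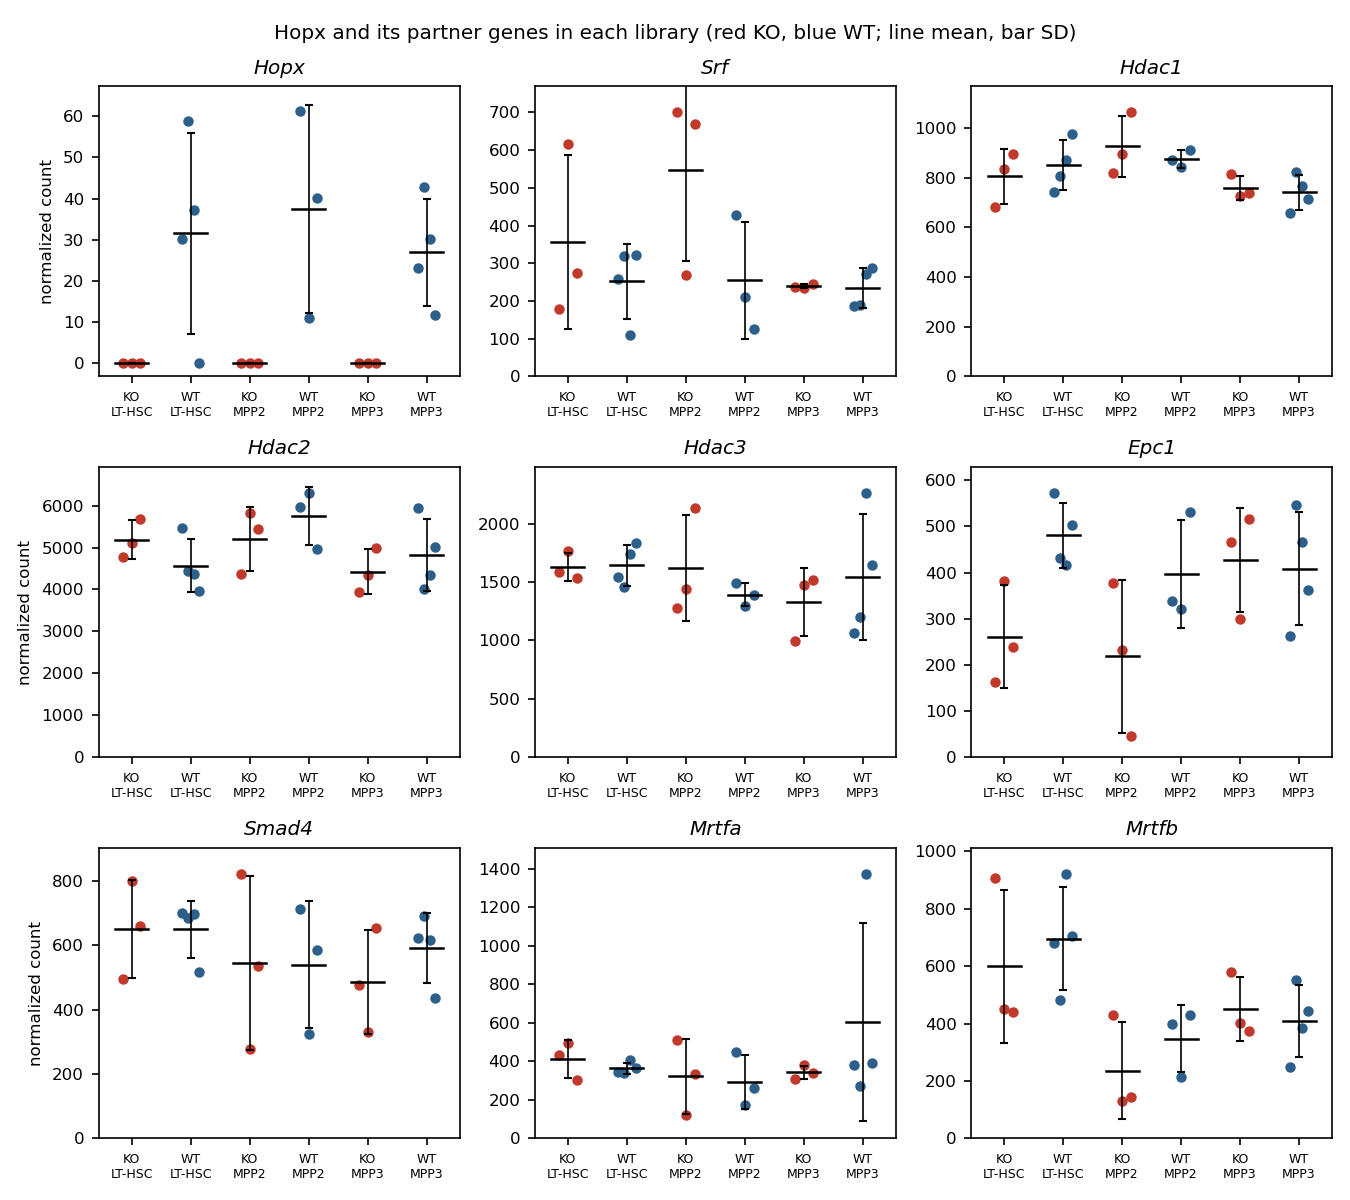
Normalized counts (reads divided by 1 size factor per library) of the 9 genes in each library, KO in red to the left of WT in blue within each population. Points are libraries, lines group means and bars SD, with 3 or 4 libraries a group. Hopx is at 0 in the 9 KO libraries and in 1 WT LT-HSC library, replicate 4, and Mrtfb is lowest in the MPP2 groups.

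Hopx is the gene targeted in these mice. It lies at chr5:77086988-77115121 on the minus strand in GRCm38, with 1516 bases of exon. Hopx had 0 reads in each of the 9 KO libraries. In WT LT-HSC it had 30.2, 58.9 and 37.1 normalized counts in replicates 1 to 3. It had 0 in the library labelled WT LT-HSC replicate 4. In WT MPP2 it had 61.2, 11.0 and 40.2 normalized counts, and in WT MPP3 23.2, 42.7, 30.3 and 11.7. Reads were thus present in 10 of 11 WT libraries, at low levels in all 3 populations, and the genotypes overlap only through that library at 0. This 1 library goes against its WT label on Hopx, and the Hopx results that rest on it are given with and without it, by a choice made after its value was seen. No partner gained or lost a call without it.

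Over all libraries there were 0 Hopx reads in KO and 349 in WT, so the share of reads was at least 97.8-fold lower in KO, with the 0 replaced by 3 counts summed over the group. In LT-HSC it was at least 32.7-fold lower. Without WT LT-HSC replicate 4 these bounds were 108-fold and 44.0-fold. The same bound was 40.2-fold for MPP2 and 26.7-fold for MPP3. Bounds and floors cover counting error only. Averaged over the populations, the limma estimate on log2(normalized count + 1) was -4.56 (SE 0.64, 95% interval -5.90 to -3.21, adjusted p = 0.0115). Only 0.0117% of all genes were called in this comparison, where called means a Benjamini-Hochberg adjusted p under 0.05. That fitted value depends on the added 1 and is no bound. Hopx is the targeted gene and passed the filter through WT alone, so its direction was fixed. The p-values for Hopx between KO and WT are therefore descriptive only. The call was kept in 25 of 31 alternative analyses, with adjusted p from 3.71e-08 to 0.309. It was lost with a pseudocount of 16, with voom weights, with edgeR, with a term for runs of library numbers and without the libraries numbered 52 to 54. Leaving out WT LT-HSC replicate 4, the library at 0, gave an adjusted p of 2.38e-05 by limma. This p-value is descriptive only, since the library was chosen by its Hopx value.

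Within single populations the limma estimates for Hopx were -4.03 in LT-HSC (adjusted p = 1), -4.97 in MPP2 (adjusted p = 0.257) and -4.67 in MPP3 (adjusted p = 1), with a background of 0.00583%, 0.0117% and 0.00583% of genes called. With the library at 0 left out, Hopx was called by limma in LT-HSC at -5.37 (adjusted p = 0.0274) and in MPP3 at -4.67 (adjusted p = 0.0464). That library was left out for its own Hopx value, so these p-values are descriptive only. Hopx passed the filter through WT alone, with 0 reads in KO, so the direction was fixed. Among the WT groups Hopx averaged 37.5 ± 25.2 normalized counts in MPP2 (SD, n = 3), 27.0 ± 13.0 in MPP3 (n = 4) and 31.6 ± 24.3 in LT-HSC (n = 4). Without the library at 0, WT LT-HSC averaged 42.1 ± 14.95 (n = 3). The WT populations overlap throughout. The limma difference between WT MPP2 and WT LT-HSC was 0.94 (95% interval -1.33 to 3.21), and that between WT MPP3 and WT LT-HSC was 0.64 (-1.46 to 2.74). Both turned sign without the library at 0, to -0.40 (-1.98 to 1.17) and -0.70 (-2.18 to 0.77), so these data give no direction. Differences of several fold in either direction fall within these intervals.

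The antisense gene Hopxos overlaps 27.2% of the exon bases of Hopx, so without a stated strand setting its reads cannot be told from those of Hopx over the shared part. Hopxos had 4.54 normalized counts in KO MPP3 replicate 3 and 0 in the other 8 KO libraries. In the WT libraries it ranged over 0 to 16.6 normalized counts and was present in 9 of 11, including the WT LT-HSC library without Hopx reads, at 4.46. Of the 12 protein-coding genes within 500 kb of Hopx, 9 were tested and 0 were called between KO and WT. Aasdh, with 264 ± 115 normalized counts in KO and 392.5 ± 117 in WT (SD, n = 9 and 11), had the lowest p of these, 0.0495 before adjustment (limma, adjusted p = 0.857).

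By the shape of its 6 group means, Hopx was nearest to Ddx3y, Eif2s3y and Uty, with root-mean-square differences of 0.65, 0.71 and 0.76 on the log2 scale. These are Y-linked genes, and male libraries are 3 of 9 in KO and 8 of 11 in WT. Without WT LT-HSC replicate 4 the nearest were Ddx3y, Ngp and Eif2s3y, at 0.75, 0.85 and 0.91. With sex as a term the Hopx estimate was -4.78 (limma, adjusted p = 0.0278), close to that without it.

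None of the 8 partner genes was called between KO and WT by limma, edgeR or DESeq2, on average or within a population. Averaged over the populations, limma gave 1 of 8 partners an unadjusted p under 0.05, against 5.03% of all genes, and edgeR and DESeq2 gave 0 of 8. In LT-HSC and MPP3 limma, edgeR and DESeq2 each gave 0 of 8 at an unadjusted p under 0.05, against 2.66% and 2.02% of all genes by limma. In MPP2 the limma count was 2 of 8, against 7.88% of all genes, the DESeq2 count 1 of 8 and the edgeR count 0 of 8. Here and below, shares of all genes at an unadjusted p under 0.05 are those of limma. The edgeR and DESeq2 counts have no such share beside them and are only described.

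**Figure D2:**
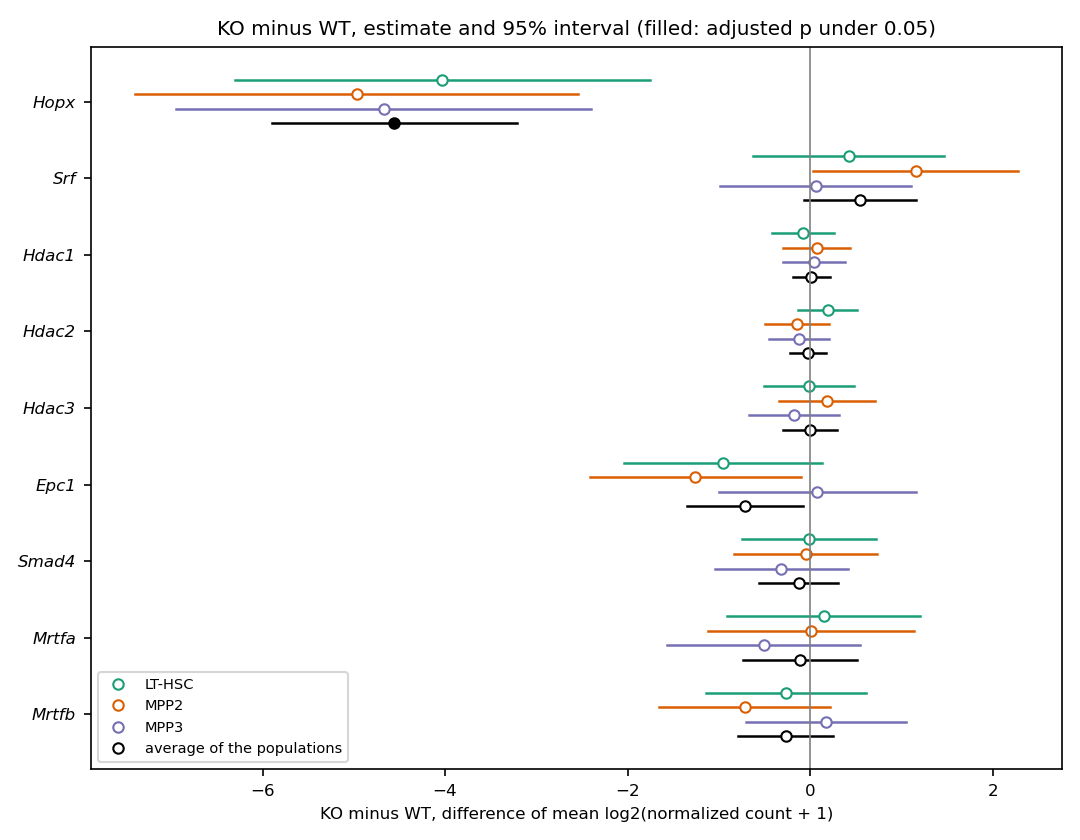
KO minus WT difference of mean log2(normalized count + 1) for the 9 genes, with 95% intervals, in LT-HSC, MPP2 and MPP3 and averaged over them. Filled points have an adjusted p under 0.05, which holds for Hopx in the average (-4.56). Every partner estimate is open, and the Hdac1, Hdac2 and Hdac3 averages lie at 0.01, -0.02 and 0.00.

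Srf, the transcription factor at the centre of the group, lies at chr17:46548329-46556175. It had 179, 616 and 274 normalized counts in KO LT-HSC, against 258, 319, 109 and 321 in WT LT-HSC. In MPP2 it had 700.1, 269 and 669 in KO, against 427, 211 and 125 in WT. In MPP3 it had 238, 235 and 244 in KO, against 188, 189.7, 271 and 287 in WT. The genotypes overlap in each population, and 2 of the 3 KO MPP2 libraries are the highest of all 20. The MPP2 difference was 1.16 (95% interval 0.04 to 2.28, unadjusted p = 0.0436, adjusted p = 0.623 by limma). The lowest WT MPP2 value, 125, is that of replicate 3, the library that stood apart by its B cell sum of 178226. Without it the MPP2 difference was 0.74 (-0.45 to 1.93, unadjusted p = 0.208 by limma). The average over populations was 0.55 (-0.07 to 1.17, adjusted p = 0.857).

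Epc1, the NuA4 scaffold, lies at chr18:6435951-6516108. It had 162, 382 and 238 normalized counts in KO LT-HSC, against 572, 431, 417 and 502 in WT LT-HSC. In MPP2 it had 378, 232 and 47.2 in KO, against 339, 321 and 530.4 in WT. In MPP3 it had 466, 300.3 and 515 in KO, against 262, 545, 466 and 362 in WT. The KO LT-HSC libraries are all below the WT LT-HSC libraries, a difference that was not called, while the genotypes overlap in MPP2 and MPP3. The share of all genes that separate in this way is not given, so the separation is only described. The averaged difference was -0.71 (95% interval -1.35 to -0.07, unadjusted p = 0.0309), which did not pass adjustment (limma, adjusted p = 0.857). Without KO MPP2 replicate 3, the library at 47.2, it was -0.42 (unadjusted p = 0.0565 by limma). That library had the fewest genes with reads of all 20, 14931, the highest share of counted alignments that were not unique, 57.8%, and an erythroid marker sum of 68105, whose part in the result was not tested. WT MPP2 replicate 2 had an erythroid sum of 71278 and 321 for Epc1. Within runs of library numbers the difference was -0.52 for 101 to 106, -0.38 for 115 to 120 and 0.33 for 81 to 88, and the run of 52 to 54 holds WT only. The antisense gene Gm28529 overlaps 7.196% of the Epc1 exon bases.

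Mrtfa and Mrtfb, the SRF coactivators, lie at chr15:81012281-81190757 and chr16:13256481-13417529. Mrtfa averaged 358 ± 118 normalized counts in KO and 432 ± 321 in WT (SD, n = 9 and 11). The WT values include WT MPP3 replicate 3 at 1370.3, where the other 3 WT MPP3 libraries had 271 to 389.5. That library had a mature neutrophil marker sum of 16355, with Ngp and Camp of the 6 markers at 0. WT MPP3 replicate 2 had a sum of 25029, with reads for all 6, and Mrtfa at 271. WT MPP3 replicate 3 also had 15826 genes with reads, the fewest of its group. The part of these marker sums and gene numbers in the Mrtfa values was not tested. The averaged limma difference of Mrtfa was -0.11 (95% interval -0.74 to 0.51). Without WT MPP3 replicate 3 it turned to 0.05 (-0.46 to 0.57), and the WT mean was 338 ± 81.4 (n = 10), so no direction holds. Mrtfb averaged 429 ± 231 normalized counts in KO and 496 ± 207 in WT, a limma difference of -0.27 (-0.79 to 0.25). Smad4, at chr18:73639009-73703780, averaged 561 ± 189.6 normalized counts in KO and 598 ± 126 in WT, a difference of -0.12 (-0.56 to 0.31).

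The deacetylase genes had the tightest intervals. Hdac2, at chr10:36974544-37001889, averaged 4939 ± 649 normalized counts in KO and 4982 ± 829 in WT, a limma difference of -0.02 (95% interval -0.22 to 0.17). Hdac3, at chr18:37935844-37955016, averaged 1525 ± 313 in KO and 1538 ± 330.2 in WT, a difference of 0.00 (-0.29 to 0.29). Hdac1, at chr4:129516104-129542713, averaged 830.3 ± 114 in KO and 817 ± 92.4 in WT, a difference of 0.01 (-0.19 to 0.21). Changes larger than about these bounds in the averaged level fall outside the intervals, while the intervals of Srf and Epc1 reach folds of 2.24 and 0.39.

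An interaction test, of unequal KO effects among LT-HSC, MPP2 and MPP3, called 0.0% of genes. Among the 9 genes the smallest p was 0.196, for Epc1, and limma, edgeR and DESeq2 each gave 0 of the 8 partners at an unadjusted p under 0.05, against 3.07% of all genes by limma. The comparisons within populations and their average share libraries.

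Hdac1 counts come with a limit of their own. The processed pseudogene Gm10093, on chromosome 17, is a copy of the Hdac1 coding sequence that is 99.4% identical over 1444 aligned bases, with 9 differences. A stretch of 80 bases from each transcript is shown because it holds 2 of the few bases that tell them apart, in capitals.
Hdac1 bases 456 to 535: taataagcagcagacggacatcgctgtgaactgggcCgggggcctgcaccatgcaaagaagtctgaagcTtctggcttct
Gm10093 bases 372 to 451: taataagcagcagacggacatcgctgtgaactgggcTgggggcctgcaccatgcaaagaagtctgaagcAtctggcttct
Of all 50-base stretches of Hdac1, 31.7% also occur in Gm10093, so reads within them may align to both. Alignments that were not unique, 52.6% to 57.8% of those counted per library, were entered outside the genes. Gm10093 was counted at 923 to 1570.0 normalized counts per library, against 659 to 1063 for Hdac1, ranges that overlap and are not corrected for length. Gm10093 averaged 1187 ± 176 normalized counts in KO and 1105 ± 155 in WT (SD, n = 9 and 11), a limma difference of 0.10 (adjusted p = 0.878). The level of Hdac1 is uncertain for this reason, and its rank below Hdac3 with it.

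**Figure D3:**
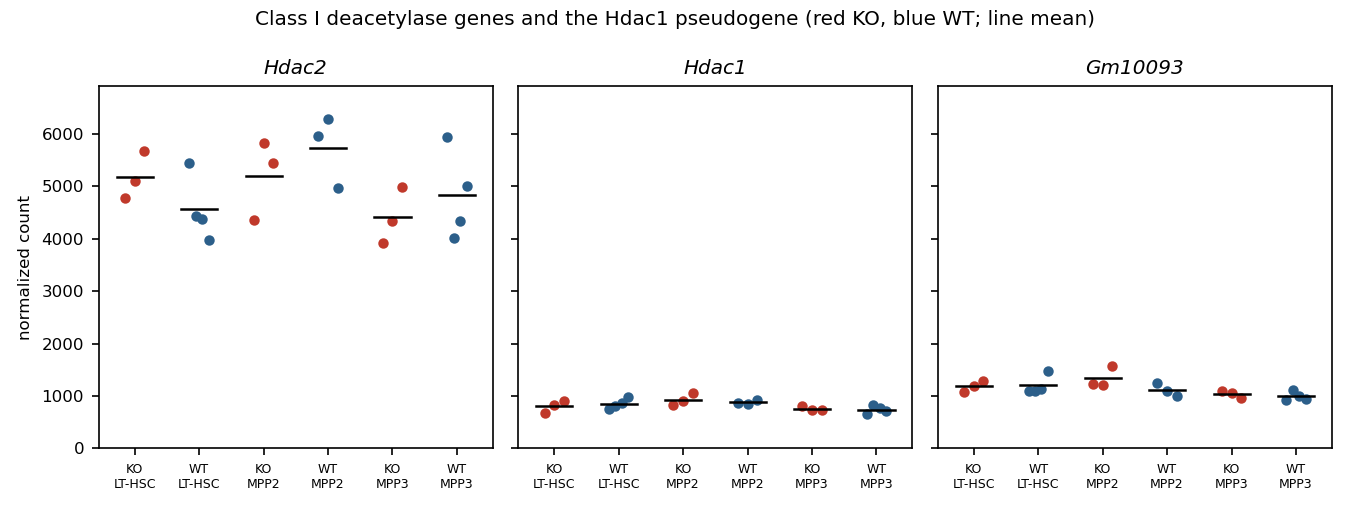
Normalized counts of Hdac2, Hdac1 and the Hdac1 pseudogene Gm10093 in each library, KO in red to the left of WT in blue, with lines at group means. Hdac2 ranges over 3928 to 6289, Hdac1 over 659 to 1063 and Gm10093 over 923 to 1570.0.

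Ratios of paralogues within a library do not depend on the scaling between libraries; they are ratios of normalized counts, not corrected for length. Hdac2 over Hdac1 was 5.95-fold in KO and 6.06-fold in WT by the mean log ratio (exact permutation p = 0.788, n = 9 and 11). With the Gm10093 reads added to Hdac1, a ratio chosen after the data were seen, it was 2.45-fold in KO and 2.58-fold in WT (exact permutation p = 0.513). Alignments entered as not unique are in neither count, so this sum does not restore them. Epc1 over Epc2, its close relative, was 0.76 in KO and 1.05 in WT (exact permutation p = 0.336). Of 12 such tests, 4 for each of 3 ratios, 0 passed adjustment and 2 had an unadjusted p under 0.05. These were Mrtfb over Mrtfa in MPP2 against LT-HSC, at 0.95 and 1.66 (exact permutation p = 0.0245, adjusted p = 0.203, n = 6 and 7), and Epc1 over Epc2 in MPP2 against MPP3, at 0.57 and 1.14 (exact permutation p = 0.0338, adjusted p = 0.203). The log2 ratios of Epc1 over Epc2 in MPP2 had an SD of 1.18 and a lowest value of -3.06. Their difference from MPP3, -0.99, ranged over -1.16 to -0.55 with 1 library left out.

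Between the populations, with genotypes weighted equally, Mrtfb was the 1 member called. It fell in MPP2 relative to LT-HSC, in a comparison in which 7.32% of all genes were called and the median gene was at -0.11. Mrtfb had 431, 130.5 and 145 normalized counts in KO MPP2, against 908, 451 and 441 in KO LT-HSC. In WT it had 399.5, 213 and 429 in MPP2, against 681, 480.5, 920.0 and 704 in LT-HSC. All 6 MPP2 libraries are below all 7 LT-HSC libraries. The share of all genes that separate in this way is not given, while 22.8% had an unadjusted p under 0.05 by limma. KO MPP3 had 579, 401 and 373, and WT MPP3 had 249, 552, 386 and 445, which overlap both other populations. The MPP2 minus LT-HSC difference was -1.26 (SE 0.31, 95% interval -1.90 to -0.61, adjusted p = 0.0194 by limma), a fold of about 0.42.

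The difference was -1.48 in KO (limma, adjusted p = 0.100) and -1.03 in WT (adjusted p = 0.312), with 1.2% and 0.833% of genes called in those comparisons. The averaged call was kept in 28 of 31 alternatives. It was lost with edgeR on 18 libraries (adjusted p = 0.104), without KO LT-HSC replicate 1 (limma, adjusted p = 0.0558) and without WT MPP2 replicate 2 (adjusted p = 0.0584). The mature neutrophil markers, 6 genes, summed to 22157 in KO LT-HSC replicate 1, where Ngp and Ltf were at 0, and to 6448 in WT MPP2 replicate 2, where Ltf was at 0. Over the groups that sum ranged over 118 to 6448 in MPP2 and 56.2 to 22157 in LT-HSC, and its part in the result was not tested. Without WT MPP2 replicate 3, the library that stood apart, it was -1.35 (adjusted p = 0.0166). Within runs of library numbers the difference was -0.67 for 101 to 106, -1.46 for 115 to 120 and -1.10 for 52 to 54, and the run of 81 to 88 has no MPP2 and LT-HSC pair of 1 genotype. MPP2 libraries had a median of 17591 genes with reads and LT-HSC libraries 18290, whose part in the result was not tested. An antisense gene, Gm15738, overlaps 1.80% of the Mrtfb exon bases and moved by -1.25 in the same comparison (limma, adjusted p = 0.180).

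**Figure D4:**
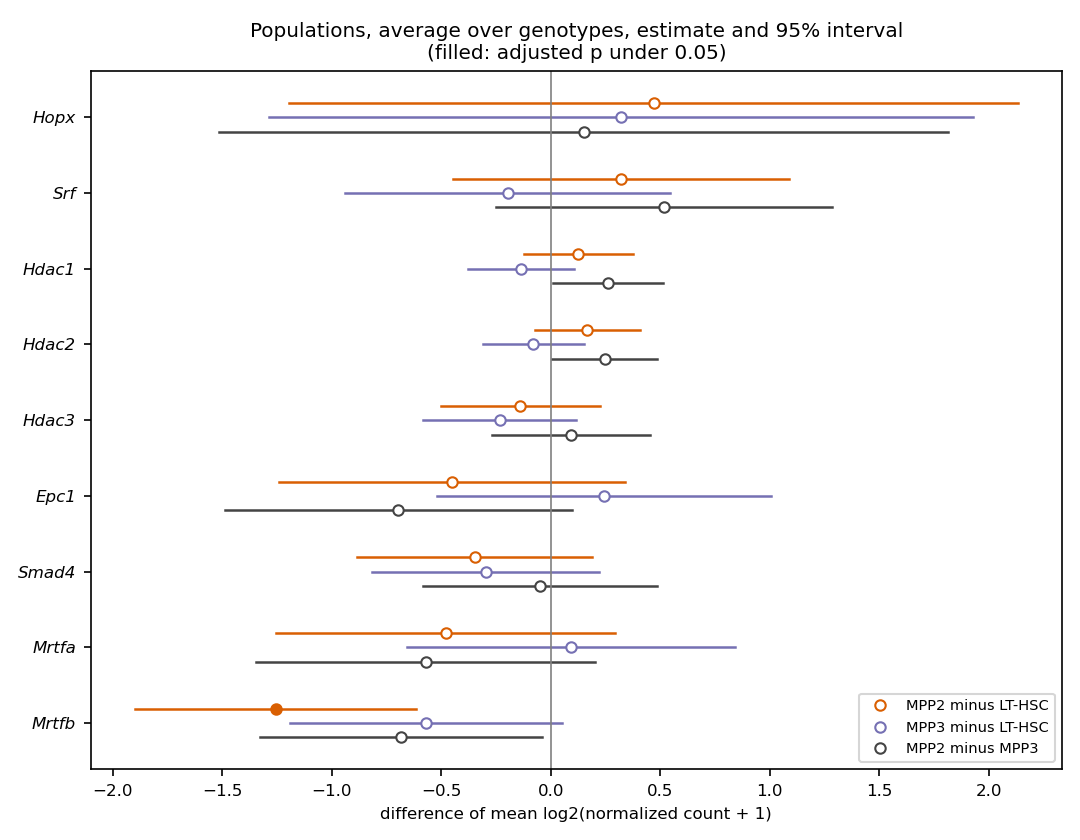
Differences of mean log2(normalized count + 1) between the populations, averaged over genotypes, with 95% intervals, for MPP2 minus LT-HSC, MPP3 minus LT-HSC and MPP2 minus MPP3. The filled point is Mrtfb in MPP2 minus LT-HSC (-1.26, adjusted p = 0.0194).

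Mrtfb in MPP2 relative to MPP3 was at -0.69 (95% interval -1.33 to -0.04, adjusted p = 0.210 by limma), in a comparison that called 6.88% of genes and 0 of the 9 members. It was called with a term for runs of library numbers (-0.79, adjusted p = 0.0444 by limma) and without KO MPP2 replicate 1 (-0.96, adjusted p = 0.0457). Here 3 of 8 partners had an unadjusted p under 0.05 by limma, against 20.5% of genes. The count was 1 by edgeR and 2 by DESeq2, whose shares of all genes are not given. The other 2 by limma were Hdac1 and Hdac2. Hdac1 averaged 901 ± 86.5 normalized counts in MPP2 and 749 ± 58.2 in MPP3 (SD, n = 6 and 7), a difference of 0.26 (adjusted p = 0.220). Hdac2 averaged 5476 ± 712 in MPP2 and 4654 ± 714 in MPP3, a difference of 0.25 (adjusted p = 0.227). In MPP3 relative to LT-HSC, where 7.4% of genes were called and 17.9% had an unadjusted p under 0.05, limma gave 0 of 9 members either way, and edgeR and DESeq2 gave 0 of 8 partners at an unadjusted p under 0.05, while voom weights gave Mrtfb one. Mrtfb had the smallest p there, 0.0689 by limma before adjustment, at -0.57 (-1.19 to 0.05).

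Within 1 genotype, 0 of 9 members were called between any pair of populations by limma, against 0.833%, 3.97% and 0.431% of genes in WT and 1.2%, 1.91% and 2.79% in KO for MPP2 minus LT-HSC, MPP3 minus LT-HSC and MPP2 minus MPP3. MPP2 minus LT-HSC in WT had 2 partners at an unadjusted p under 0.05 by limma, Mrtfb and Hdac2, against 12.2% of genes, and 2 by edgeR and by DESeq2. Without WT LT-HSC replicate 4 Hdac2 no longer had one (0.27, unadjusted p = 0.120 by limma). In KO, Mrtfb alone had one in that comparison, against 17.2% of genes, and likewise by edgeR and DESeq2. MPP3 minus LT-HSC had 0 by limma, edgeR and DESeq2 in either genotype. The shares by limma were 14.1% of genes in WT and 10.6% in KO. MPP2 minus MPP3 in WT had 0 by limma and edgeR and 1, Mrtfa, by DESeq2, against 9.57% of genes by limma. MPP2 minus MPP3 in KO had Mrtfb at -1.13 (adjusted p = 0.193 by limma) and Epc1 at -1.36 (adjusted p = 0.201), against 17.5% of genes. In that comparison edgeR gave Srf alone an unadjusted p under 0.05, and DESeq2 gave Mrtfb and Srf. The population comparisons share libraries with one another and with the genotype comparisons.

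By group means, the genes near Mrtfb included Prdm11 and Il11ra1, each with a root-mean-square difference of 0.11 on the log2 scale, and 65 of 17060 genes lay within 0.2. Srf was nearest to Pdlim5, a PDZ and LIM protein of the actin cytoskeleton, Mlycd and Paxip1, from 0.05 to 0.09. Epc1 was nearest to 1700001G11Rik, E130307A14Rik and Sec16a, from 0.08 to 0.11, and Mrtfa to Kantr, Cd79b and Hcls1, from 0.06 to 0.08. For each of the 3 deacetylases and Smad4, 1571 to 3454 genes lay within 0.2.

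The pathway genes around the members were read from 8 lists of 143 genes, of which 128 were tested. Between KO and WT none was called by limma, on average or in any population, against a background of 0.0117%, 0.00583%, 0.0117% and 0.00583% of genes. With DESeq2, Tgif1 was called in MPP2 (adjusted p = 0.0258) and Gatad2b in MPP3 (adjusted p = 0.0305), both named for that. On average 4 of the 128 had an unadjusted p under 0.05 by limma, against 5.03% of all genes. The 10 immediate early SRF targets had a median difference of 0.30, and the 22 cytoskeletal targets one of 0.01, against -0.05 for all genes. The HDAC complex genes had a median of -0.04, NuA4 genes 0.01, SMAD ligands and receptors -0.15, SMADs and regulators -0.07 and SMAD targets -0.40. The gene with the smallest p was Fhl2, an SRF cofactor of the LIM-domain family, with 15.8 ± 27.1 normalized counts in KO and 32.1 ± 26.7 in WT (SD, n = 9 and 11; unadjusted p = 0.0107, adjusted p = 0.857 by limma).

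**Figure D5:**
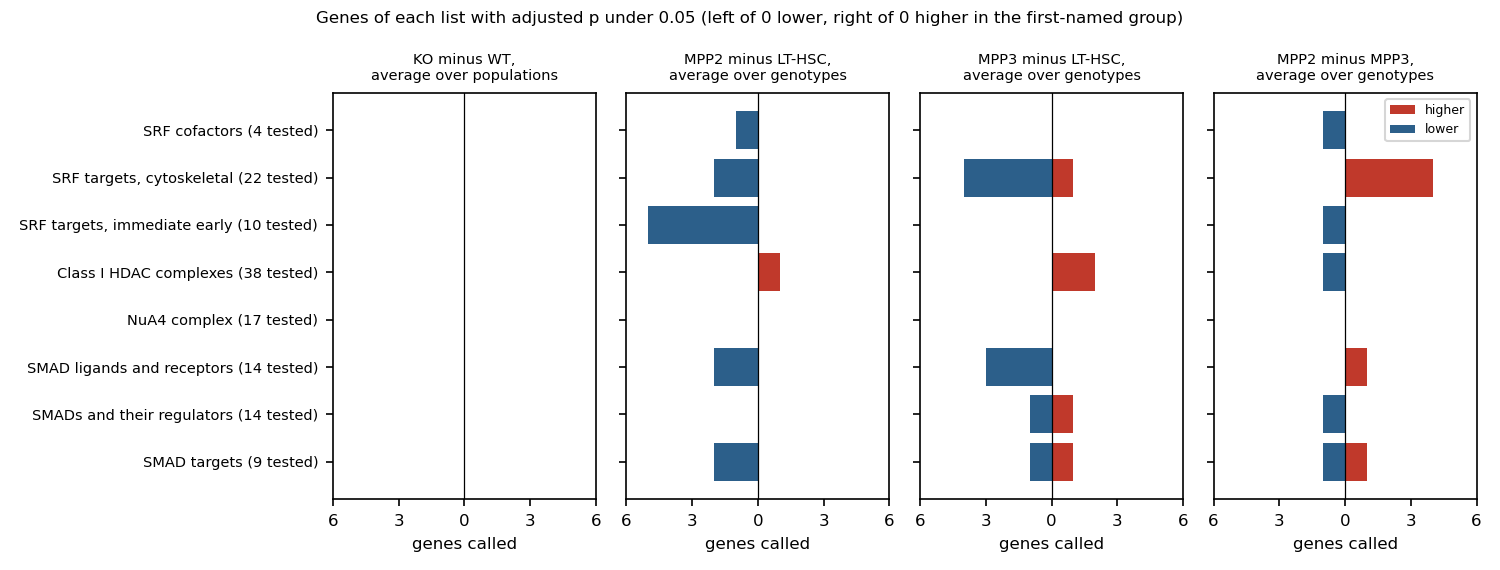
Number of genes in each pathway list with an adjusted p under 0.05, drawn to the left of 0 where lower and to the right where higher in the first-named group, for KO minus WT and the 3 population differences. KO minus WT has 0 in each list, and the immediate early SRF targets have 5 of 10 lower in MPP2 minus LT-HSC.

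In MPP2 relative to LT-HSC, 5 of the 10 tested immediate early SRF targets fell and none rose, with a median of -1.50 against -0.11 for all genes. Nr4a1, a nuclear receptor, averaged 66.5 ± 59.2 normalized counts in MPP2 and 855 ± 357 in LT-HSC (SD, n = 6 and 7; -4.23, adjusted p = 0.00413 by limma, called in 30 of 31 alternatives). Zfp36, which destabilises AU-rich messenger RNAs, averaged 1462 ± 487 in MPP2 and 4496 ± 2202 in LT-HSC (-1.55, adjusted p = 0.0118, 30 of 31). Junb, an AP-1 subunit, averaged 2444 ± 1534 in MPP2 and 6571 ± 1837 in LT-HSC (-1.64, adjusted p = 0.0241, 27 of 31). Ier2 averaged 2778 ± 967 in MPP2 and 5964 ± 2193 in LT-HSC (-1.14, adjusted p = 0.0367, 21 of 31). The other called gene was Egr1, an early growth response factor, named here after its result was seen. Against 7.32% of all genes called, cytoskeletal targets had 2 of 22 lower, near that share, with Fhl1 at -1.64 and Capg, an actin capping protein, at -0.83. Elk3, a ternary complex factor that binds DNA beside SRF, fell by 1.34 (adjusted p = 0.00367, called in 31 of 31). The CArG boxes upstream of 3 of these targets that change between populations are shown with their flanks, from RefSeq GRCm38.p6, with the boxes in capitals at chr7:28379277-28379286 on the minus strand and chrX:56779581-56779590 and chr14:20929171-20929180 on the plus strand, to set beside those of Hopx and Srf.
Zfp36: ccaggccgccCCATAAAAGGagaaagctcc
Fhl1: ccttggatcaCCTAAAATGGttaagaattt
Vcl: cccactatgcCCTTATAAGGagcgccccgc
Of the cytoskeletal targets with a window, 5 of 22 held the motif, and of the immediate early targets 2 of 9, against 1.81% of all genes. Both lists were drawn up as SRF targets, and SRF binds CArG boxes, so this contrast is no test.

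In MPP3 relative to LT-HSC the immediate early targets had 0 of 10 called, with 1 at an unadjusted p under 0.05 by limma and a median of -0.71 against 0.00 for all genes. Of the cytoskeletal targets 4 of 22 fell and 1 rose, against 7.4% of all genes called in either direction. Fhl1, a LIM-domain protein of the cytoskeleton, averaged 31.7 ± 12.9 normalized counts in MPP3 and 1233 ± 261 in LT-HSC (SD, n = 7 each; -5.31, adjusted p = 3.88e-08 by limma). Vcl, the focal adhesion protein vinculin, averaged 458 ± 177 in MPP3 and 1060 ± 275 in LT-HSC (-1.29, adjusted p = 0.00248). Tpm4, a tropomyosin, averaged 1070 ± 285 in MPP3 and 405 ± 100.3 in LT-HSC (1.36, adjusted p = 0.00519). Each of these 3 was called in 31 of 31 alternatives, while Dstn, an actin depolymerising factor at -0.87, was called in 24. The other called gene was Tpm1, named here after its result was seen. In MPP2 relative to MPP3, 4 of 22 rose and none fell, against 6.88% of all genes called in either direction, with Fhl1 at 3.67 and Vcl at 1.42 called in 31 of 31 alternatives and Dstn at 0.97 and Tpm1 at 0.61 in 26.

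Of 38 genes of the deacetylase complexes, all tested, 1, 2 and 1 were called in MPP2 minus LT-HSC, MPP3 minus LT-HSC and MPP2 minus MPP3, against 7.32%, 7.4% and 6.88% of all genes. Rbbp4, a histone chaperone shared by these complexes, rose in MPP2 relative to LT-HSC at 0.47 (limma, adjusted p = 0.0278, called in 23 of 31 alternatives). In MPP3 relative to LT-HSC, Mta3, a NuRD subunit, rose by 0.91 (adjusted p = 0.00766, 31 of 31) and Sap30, a SIN3 subunit, by 0.54 (adjusted p = 0.0374, 19 of 31). Chd3, a NuRD remodeller, averaged 152 ± 93.5 normalized counts in MPP2 and 535 ± 175 in MPP3 (SD, n = 6 and 7; -1.998, adjusted p = 0.00734, 30 of 31). The list medians were -0.05, 0.06 and -0.07 in MPP2 minus LT-HSC, MPP3 minus LT-HSC and MPP2 minus MPP3. Of the 17 NuA4 genes, the complex to which EPC1 belongs, 0 were called by limma in these 3 comparisons, with 3, 0 and 1 at an unadjusted p under 0.05, against 22.8%, 17.9% and 20.5% of all genes.

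Around Smad4, which was not called between the populations, 2, 3 and 1 of 14 ligands and receptors were called in MPP2 minus LT-HSC, MPP3 minus LT-HSC and MPP2 minus MPP3, against 7.32%, 7.4% and 6.88% of all genes. Tgfbr3, the TGF-beta co-receptor betaglycan, averaged 102 ± 38.7 normalized counts in MPP3 and 1273 ± 230.7 in LT-HSC (SD, n = 7 each; -3.71, adjusted p = 3.88e-08 by limma), and it was higher in MPP2 than in MPP3 at 3.35. Eng, the BMP co-receptor endoglin, was lower than in LT-HSC in both MPP2 (-1.02) and MPP3 (-0.91). Bmpr2, a BMP receptor, was lower in MPP2 than in LT-HSC at -1.83 and was called in 24 of 31 alternatives. Bmp7 was at 0 in the 7 MPP3 libraries and at 0 to 124 normalized counts in LT-HSC, a call made in 12 of 31 alternatives and lost with 14 of 20 single libraries left out.

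Of the 14 tested SMADs and regulators, 2 were called in MPP3 relative to LT-HSC, 0 in MPP2 relative to LT-HSC and 1 in MPP2 relative to MPP3, against 7.4%, 7.32% and 6.88% of all genes. Ski, a repressor of SMAD transcription, averaged 140.4 ± 28.1 normalized counts in MPP3 and 362 ± 80.2 in LT-HSC (SD, n = 7 each; -1.34, adjusted p = 0.00102 by limma, 31 of 31 alternatives), and Tgif1, a SMAD corepressor, rose by 1.18 (20 of 31). Tgif1 was lower in MPP2 than in MPP3 at -1.81 (30 of 31). Of 9 SMAD targets, 2 were called in each comparison. Cdkn1c, a cell cycle inhibitor of quiescent stem cells, fell in MPP2 (-2.71) and in MPP3 (-3.39) relative to LT-HSC and was called in 31 of 31 alternatives of each. Id1, a BMP target, fell in MPP2 relative to LT-HSC with 8.62 ± 9.85 normalized counts in MPP2 and 83.3 ± 63.5 in LT-HSC, a call kept in 17 of 31 alternatives. Cdkn1a, another cell cycle inhibitor, rose in MPP3 relative to LT-HSC by 1.76 and was lower in MPP2 than in MPP3 at -1.77. Ltbp1, which binds latent TGF-beta, had 0.98 to 117 normalized counts in MPP2 and 0 to 1.80 in MPP3.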

How the data were processed

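The deposited table holds normalized signal values, which the authors made by dividing HTSeq read counts by 1 size factor per library. Per the submitters' processing notes, TopHat2 2.1.1, HTSeq 0.11.2 and DESeq were used with GRCm38. The annotation release and strand setting were not named there or in the labels. Whole reads were recovered for all 20 libraries within a tolerance of 1e-06, and 5 counting summary entries were left out. Symbols came from GENCODE release 21 for mouse, which matched 45143 identifiers and left 563 without one.

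The main test was limma 3.58.1 in R 4.3.3 on log2(value + 1) with 6 group means, for 17160 genes that passed a filter on low counts, with Benjamini-Hochberg adjustment over all of them and a threshold of 0.05. edgeR 4.0.16 and DESeq2 1.42.0 on recovered reads were alternatives. The fits were tested on simulated data. The members and lists were chosen with earlier results of these data known. Up to 4 genes per list that passed were named, smallest p first, or the 1 of smallest p where none passed. Ratios were compared by exact two-sided permutation tests. Promoter windows and sites are from RefSeq, and transcript sequences from the reference annotation. Floors are 3 counts.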

Additional observations from a re-analysis of the deposited data

Results flagged for a closer look

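In groups of 4 libraries, a library was singled out where its gap to the nearest other, divided by the group's range, exceeded Dixon's 95% critical value for that size. Of 26 groups examined, 4 held such a library, and chance flags about 1 in 20. Mrtfa had 1370.3 normalized counts in WT MPP3 replicate 3, where the others had 271 to 389.5. In the library labelled WT LT-HSC replicate 4, the one with no Hopx reads, Smad4 had 517.5 where the others had 684 to 701. That library also had 1479 for Gm10093, where the others had 1087 to 1142, and 62.5 for Gm15738, where the others had 59.4 to 59.8.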

How the results depend on the processing

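Of 3987 member values recomputed over 32 settings, 3972 kept their side of the threshold, 9 lost a call, 6 gained one and 0 called values reversed. Among the values that were not called, 174 changed sign. Averaged over populations, the Hopx difference between KO and WT lost its call, so that 0 members were called, at -1.45 with a pseudocount of 16, -5.48 with voom weights, -8.03 with edgeR, -8.21 with edgeR on 18 libraries, -4.47 with a library-number term and -4.27 without the libraries numbered 52 to 54. Leaving out 1 library gave -5.005 to -4.35. Hopx was called in LT-HSC (-5.37) and MPP3 (-4.67) without WT LT-HSC replicate 4, so the count there ranged over 0 to 1, and in MPP2 with DESeq2 (-7.76), a count of 1. For MPP2 minus LT-HSC the count of 1, Mrtfb, became 0 with edgeR on 18 libraries and ranged over 0 to 1 with 1 library left out. It was 0 without KO LT-HSC replicate 1 or WT MPP2 replicate 2. For MPP2 minus MPP3 the count of 0 became 1, Mrtfb, with a library-number term (-0.79) and without KO MPP2 replicate 1 (-0.96), a range of 0 to 1. In KO alone, MPP2 minus LT-HSC gained Mrtfb (-2.03) without KO MPP2 replicate 1, a range of 0 to 1. The causes were not tested. Of the list counts, 327 of 3987 moved by over 1.5 times. The counts over all genes, used here as background, depended on the tool. Between KO and WT on average limma called 2 genes, DESeq2 54 and edgeR 1, and 72 were called by limma without KO MPP2 replicate 2. For MPP2 minus LT-HSC the counts were 1256 by limma, 1805 by DESeq2, 773 by edgeR and 276 by edgeR on 18 libraries. For MPP3 minus LT-HSC they were 1270, 1544, 1021 and 833 in the same order, and for MPP2 minus MPP3 1180, 1560, 741 and 366. The interaction had 0 by limma and edgeR and 8 by DESeq2. The labels give library numbers but no replicate numbers shared between groups and no animal, so runs of library numbers were used as the term above.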
